A study of Mus musculus with 4 samples.

Results

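The genes described here encode the machinery that sorts membrane proteins at endosomes: the ESCRT complexes, retromer and its relatives, the sorting nexins, and the tethers named for vacuolar protein sorting (Vps). They were taken by symbol (Chmp, Vps or Snx followed by a digit, and Vta1, Tsg101, Hgs, Stam, Stam2 and Pdcd6ip), which found 82 of the 22063 gene identifiers of the count table. RNA was sequenced from C22, a wild-type, immortalized mouse line labelled as bronchial Club cells, which line small airways and secrete protective proteins. In 2 libraries the cells had received norepinephrine (NE), the transmitter of sympathetic nerves, at 10 µM for 3 h, and in the other 2 they had received vehicle for the same time. Both groups had been kept in DMEM with a low level of serum, and nothing else distinguished them in the labels.

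Endosomes receive proteins taken up from the cell surface and pass them either to lysosomes or back to the surface and the Golgi. ESCRT complexes gather ubiquitin-tagged proteins and bud them into the endosome's interior, and the last of them, ESCRT-III, also cuts membranes at cell division and at the nuclear envelope. Retromer and retriever do the opposite and rescue proteins from that path, with sorting nexins that bind endosomal lipids and shape the membrane into tubules.

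Total counts ranged from 14783176 to 18491334 per library, and the members together took between 0.522% and 0.546% of them. Against the label, the secretory markers of Club cells were nearly absent, while some other genes of the Club and epithelial lists were abundant. Scgb1a1 had 2 counts in all, 7 of 12 Club cell markers (Scgb3a1, Scgb3a2, Cyp2f2, Cckar, Sftpb, Chad and Upk3a) had 0 counts in the 4 libraries, and so did the epithelial adhesion gene Epcam. The Club cell list's enzyme genes Aldh1a1 (821 CPM) and Ephx1 (143 CPM) and the epithelial keratin genes Krt8 (900.2 CPM), Krt18 (607 CPM) and Krt19 (158 CPM) were well expressed on average. In the same lists the Club cell genes Cbr2 (1.80 CPM) and Hp (1.45 CPM) and the epithelial adhesion gene Cdh1 (0.289 CPM) were low. The 5 epithelial markers summed to between 1554 and 1730 CPM in vehicle and between 1662 and 1714 CPM in NE, nearly all from the keratin genes. A count of 0 allows up to 0.0471 CPM (the count scaled to library size) over the libraries together, for counting error only. The 7 mesenchymal markers summed to between 6825 and 7347 CPM in vehicle and between 6431 and 6699 CPM in NE. Between the groups 0 of 7 were called, against 1.57% of all genes. Their log2 fold changes were all negative, from -0.05 (Fn1) to -0.27 (Col1a2). The 3 leukocyte markers summed to at most 5.10 CPM and the 3 endothelial markers to at most 3.50 CPM. Nothing in the labels says that replicates came from separate cultures, so the p-values measure the spread between these libraries, which may be technical.

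Sequences upstream of the retromer genes are shown first, because 3 of the 4 retromer core genes had an unadjusted p under 0.05, all with NE higher (7.48% of all genes did so). They were taken from the RefSeq promoter table (build GRCm38.p6), which had an entry for 55 of the 82 symbols, with none for Vps35. Each is the part before the annotated start that no annotated exon covers, and capitals mark the palindrome known as the CLEAR element of lysosomal genes, which is the E-box CACGTG with GT before it and AC after it. The windows lay at chr10:62486806-62487055 (minus strand), chr5:122354234-122354327 (plus strand) and chr9:27030095-27030174 (minus strand).
Vps26a: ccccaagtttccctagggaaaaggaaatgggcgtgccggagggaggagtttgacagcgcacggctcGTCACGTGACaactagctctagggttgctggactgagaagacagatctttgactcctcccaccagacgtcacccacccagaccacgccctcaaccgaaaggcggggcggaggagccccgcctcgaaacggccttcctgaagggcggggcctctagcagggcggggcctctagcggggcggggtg
Vps29: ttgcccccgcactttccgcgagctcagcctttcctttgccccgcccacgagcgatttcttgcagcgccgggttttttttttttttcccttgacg
Vps26b: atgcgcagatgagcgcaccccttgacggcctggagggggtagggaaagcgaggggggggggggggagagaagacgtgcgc

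The palindrome stood 184 bases before the outer of the 2 Vps26a starts. Of the 27025 genes with a window of 250 bases before a start, searched on both strands, 0.27% held the palindrome in any window and 6.86% an E-box (0.24% and 6.02% of the 32851 windows). Among the members with an entry, 3 of 55 held the palindrome (Vps16, Vps26a and Vps33a) and 7 of 55 an E-box. The other copies are shown with 10 bases on each side, since Vps16 and Vps33a, which encode core subunits of the HOPS tether, carry the same element close to their starts, 20 and 14 bases before them. They lay at chr10:62486732-62486761 (minus strand, before the inner Vps26a start), chr2:130424290-130424319 (plus strand) and chr5:123573010-123573039 (minus strand). Unlike the sequences above, these copies were not limited to bases free of exons. All 250 bases of the Vps16 window lay in annotated exons of Pced1a. The inner Vps26a window and the Vps33a window held 148 and 23 bases of their own genes' annotated exons. Next to their starts, 59 and 0 bases were free of exons. The Vps16 copy and the inner Vps26a copy thus lay within annotated exons, the latter downstream of the outer Vps26a start.
Vps26a, inner start: atggcctacgGTCACGTGACgggcggcggg
Vps16: aggcggcctcGTCACGTGACcccgaagggc
Vps33a: tgaacgtcccGTCACGTGACgcaggcggcg

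The log2 fold changes of Vps16 and Vps33a between NE and vehicle were -0.04 ± 0.09 and -0.03 ± 0.08 (SE), and that of Vps26a was 0.23 ± 0.07. The cAMP response element TGACGTCA, the full site of CREB, was in 0 of 55 members' windows and in those of 1.77% of all genes. Its core TGACG was in 18 of 55 members and in 19.8% of all genes. The members include Vps26a, Vps29 and Vps26b. One of the TGACG matches before Vps26a overlaps the palindrome. The GC box GGGCGG was in 34 of 55 members and in 35.4% of all genes. For these motif shares, all genes are the 27025 with a window, whether expressed in these cells or not. The members are an unlike set, since 75 of the 82 reached a mean of 10 CPM. These matches describe the letters of the windows and do not show binding.

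Most of the machinery was transcribed at moderate levels. A mean of at least 10 CPM was reached by 75 of the 82 members, and per kb of exon, the scale on which genes can be compared, Vps35 was the highest with 117 CPM per kb. Next were Chmp4b with 109 CPM per kb, Snx5 with 92.5, Snx3 with 81.0 and Chmp2a with 78.9. At the other end, Snx31 had 0 counts in all libraries and Snx20 had 0 and 1 counts in vehicle and 4 and 6 in NE, too few to be tested. Vps37d, Snx22, Snx29 and Snx32 were tested but stood below 1 CPM per kb. Of the ESCRT-III genes, Chmp4c was the lowest at 1.18 CPM per kb, far below its paralogue Chmp4b.

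**Figure D1:**
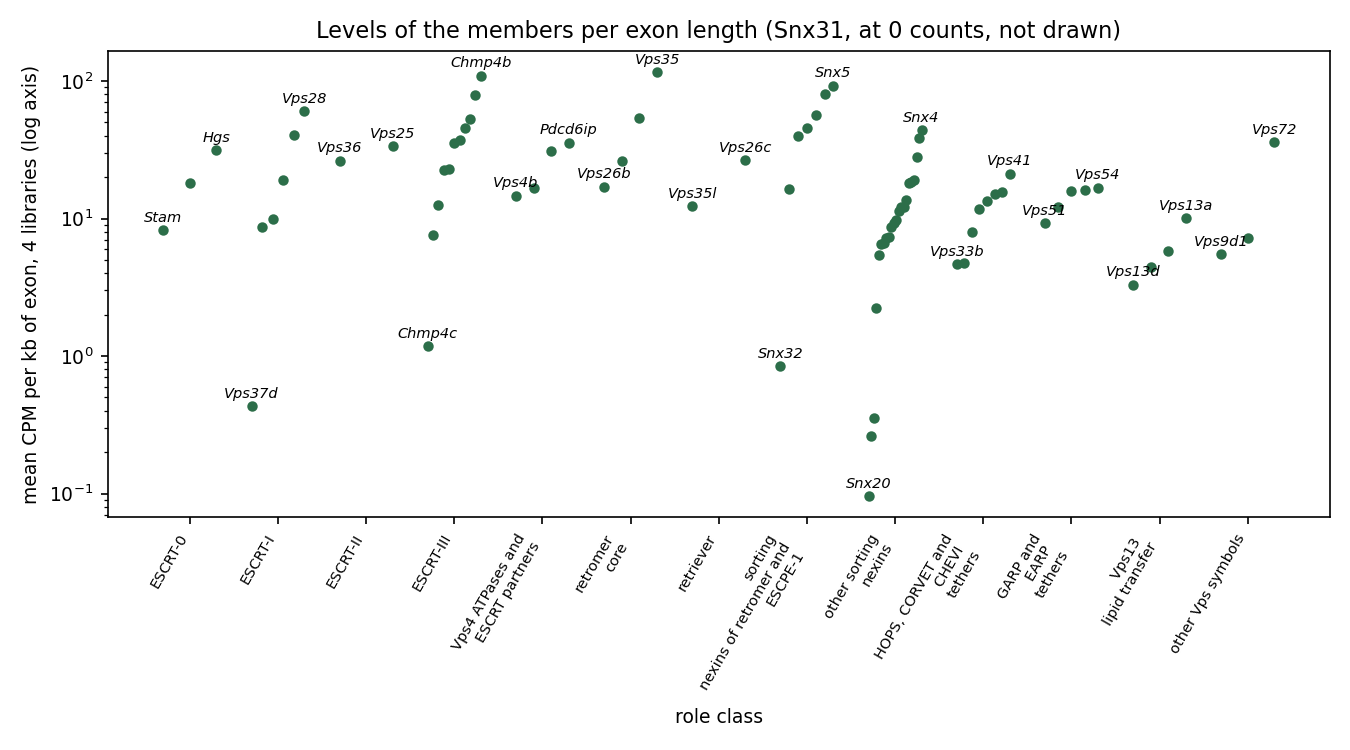
Mean level of each member over the 4 libraries, as CPM per kb of merged exon on a log axis, by role class; each point is a gene, the highest and lowest of each class are named, and Snx31 with 0 counts is not drawn. Vps35 (117), Chmp4b (109) and Snx5 (92.5) stand highest, and Snx20 (0.0958) stands lowest.

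Between NE and vehicle, 80 of the 82 members passed the filter on low counts and 1 of them was called in edgeR's quasi-likelihood test (adjusted p under 0.05 over all 11419 genes tested), Chmp4c, which fell. Over all tested genes 1.57% were called, 0.342% higher and 1.23% lower, so 1 call among 80 is near the background. An unadjusted p under 0.05 was found for 10 of 80 members, 7 positive and 3 negative, against 17.3% of all genes (7.48% positive and 9.82% negative). Fold changes were small: 75 of 80 lay within 0.25 of 0 on the log2 scale, with a median of 0.04 against 0.00 over all genes, and 51 of 80 (63.8%) were positive, against 5704 of all 11419 genes, which is near an even split. The groups did not overlap in 28 members with NE higher and in 10 with NE lower, against 24.6% of all genes in each direction. The count of members called moved with the processing, as did the share of all genes called. It was 1 with DESeq2 size factors as scaling (1.44% of all genes called), the stricter filter (1.80%), limma voom (1.88%) and the replicate block (2.80%), and 2 with no filter (2.07%). It was 0 with total counts as scaling (1.16%), the DESeq2 Wald test (0.517%) and the length trend removed (0.254%). Without vehicle replicate 1 it was 2 (3.70%) and without vehicle replicate 2 it was 3 (6.35%). Without NE replicate 1 (0.617%) or NE replicate 2 (0.0343%) it was 0. In bulk RNA, fewer cells of a type and less RNA per cell cannot be told apart.

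**Figure D2:**
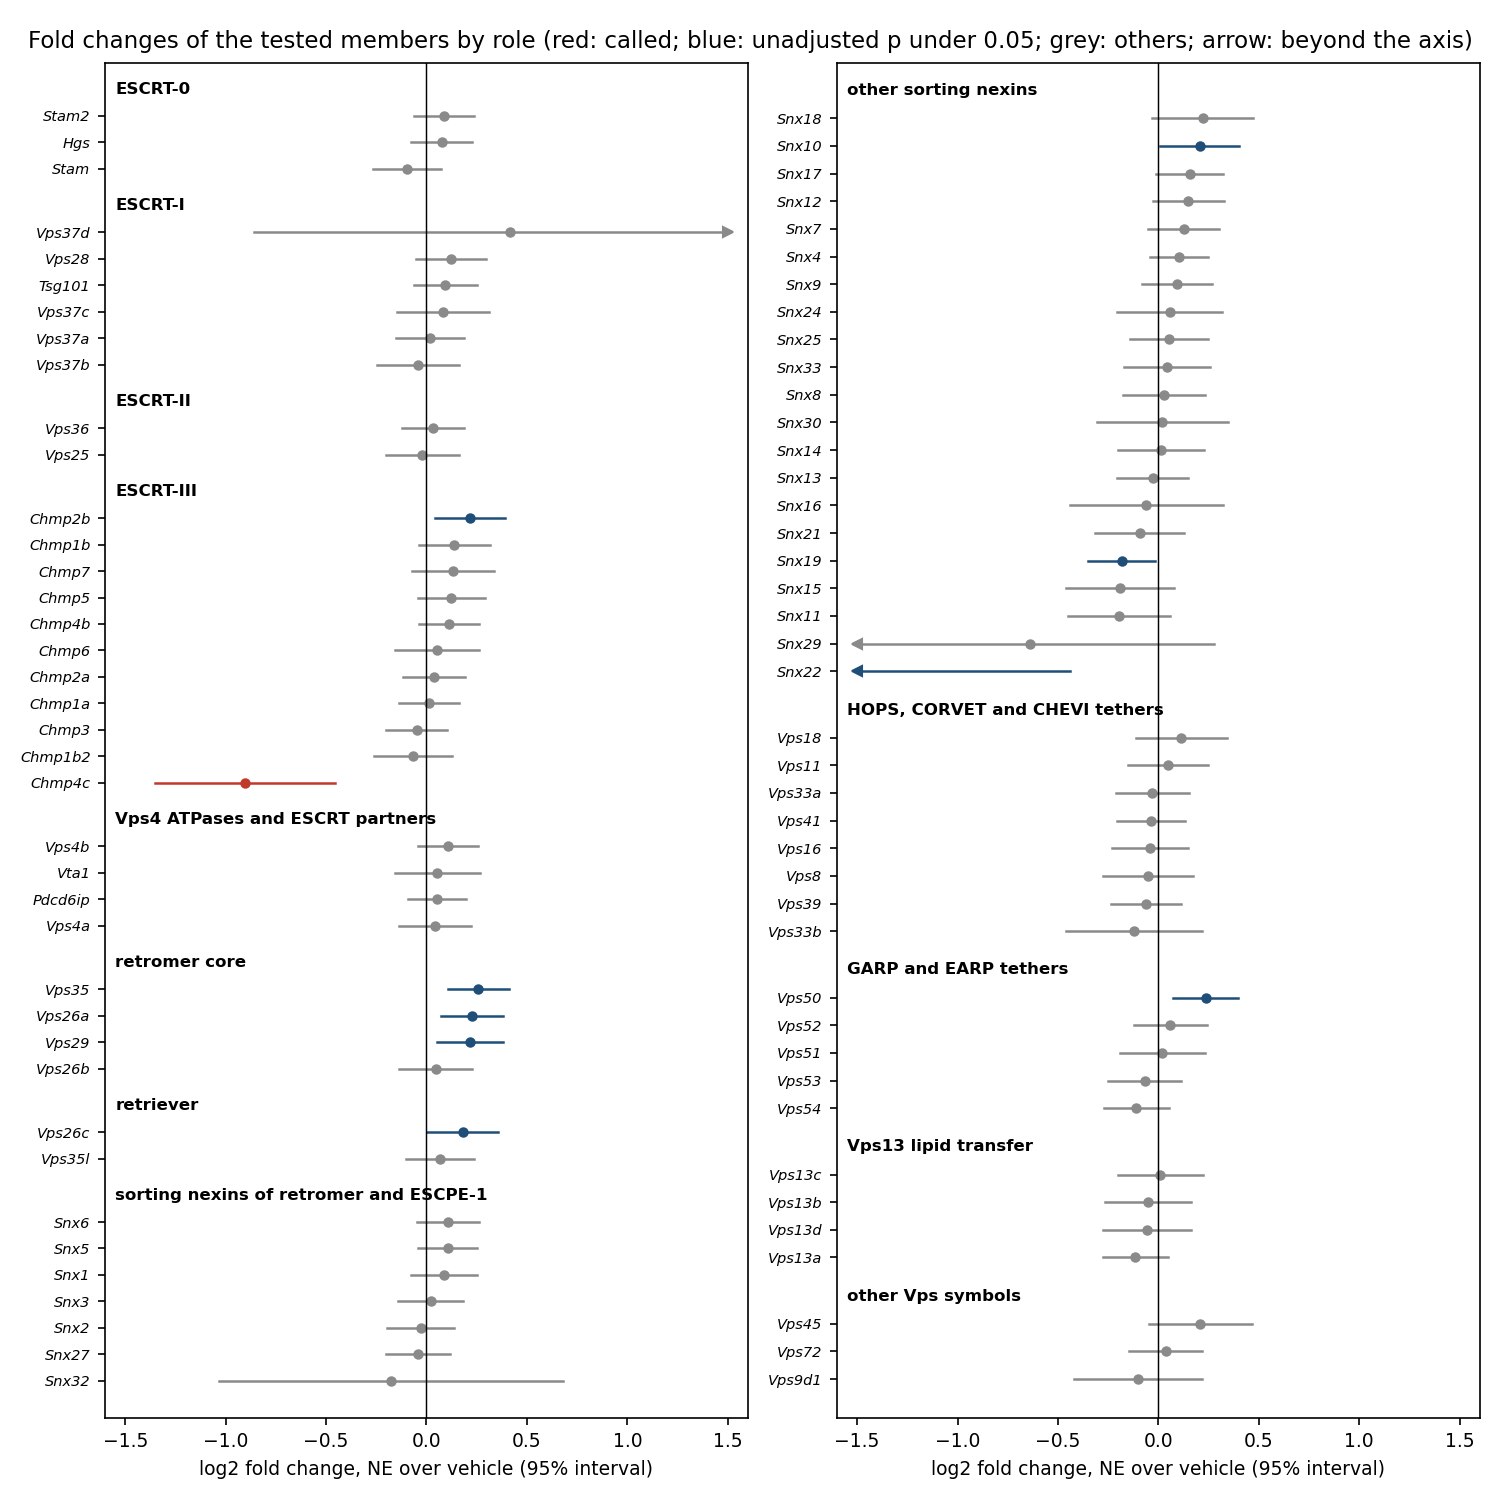
Log2 fold change of NE over vehicle (points) with its 95% interval (lines) for the 80 tested members, by role class; red marks the called gene, blue an unadjusted p under 0.05, and arrows run past the axis. Chmp4c alone is red, and Vps35, Vps26a and Vps29 of the retromer core are blue and positive.

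Among the ESCRT genes, those of the early complexes differed little. ESCRT-0 binds ubiquitin-tagged cargo, and its gene Hgs was found at 89.5 and 88.5 CPM in vehicle and 91.8 and 95.9 CPM in NE (log2 fold change 0.08 ± 0.07, edgeR adjusted p = 0.624). Its partners Stam2 (0.09 ± 0.07) and Stam (-0.10 ± 0.08) had opposite signs. Both sets of NE values lay outside those of vehicle, Stam2 above and Stam below, as in 24.6% of all genes in each direction. Neither gene was called. Stam took 41.2% (95% Wilson interval 39.2 to 43.2%) and 40.3% (38.3 to 42.3%) of the counts of the pair in vehicle, and 37.9% (36.0 to 39.8%) and 37.4% (35.7 to 39.2%) in NE. These intervals cover counting error only. Of the 6 ESCRT-I genes, 5 were positive and 0 had an unadjusted p under 0.05, against 17.3% of all genes. Tsg101, its ubiquitin- and virus-binding subunit, stood at 0.09 ± 0.07 (adjusted p = 0.549), and Vps28, the most abundant per kb, at 0.12 ± 0.08. The rare Vps37d (12 and 5 counts in vehicle, 11 and 15 in NE) gave 0.42 ± 0.60, and Vps37b gave -0.04 ± 0.10. ESCRT-II links ESCRT-I to ESCRT-III, and its genes Vps25 and Vps36 gave -0.02 ± 0.09 and 0.03 ± 0.07.

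ESCRT-III proteins polymerize into the filaments that cut the membrane neck, and Chmp4 proteins form the bulk of that filament. Chmp4c, the paralogue known in human cells for delaying the last step of cell division (abscission) when chromatin is trapped in the bridge, had 148 and 135 counts in vehicle and 92 and 79 in NE. These are 9.95 and 9.06 CPM against 5.90 and 4.32 CPM, so both NE libraries lay below both vehicle libraries. Its log2 fold change was -0.90 ± 0.21 (95% interval -1.35 to -0.46, edgeR adjusted p = 0.0440), from 9.50 ± 0.626 to 5.11 ± 1.12 CPM (SD, n = 2 each). The call was lost with the DESeq2 Wald test (adjusted p = 0.115), with total counts as scaling (0.0504), with the trend on transcript length removed (0.0899), without the first NE library (0.0735) and without the second (0.584).

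Chmp4c exons overlap those of Snx16, which lies on the opposite strand, and the strand setting of the counting is not given in the sources used here, so reads of the overlap cannot be assigned with certainty. Snx16 itself had 262 and 177 counts in vehicle and 190 and 293 in NE, with overlapping groups (-0.06 ± 0.18). Chmp4b, the common paralogue, was found at 162 and 177 CPM in vehicle and 183 and 184 CPM in NE (0.11 ± 0.07, adjusted p = 0.439). Of the counts of this pair, Chmp4c took 5.78% (4.94 to 6.76%) and 4.86% (4.12 to 5.72%) in vehicle and 3.12% (2.55 to 3.81%) and 2.30% (1.85 to 2.85%) in NE. The share was lower in both NE libraries. These Wilson intervals cover counting error only, and the libraries of a group differed by more than that over all genes (chi-square per degree of freedom 6.52 in vehicle and 4.53 in NE), so they are no test of the groups.

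Chmp2b, an ESCRT-III subunit whose human gene is mutated in a form of frontotemporal dementia, was found at 62.2 and 64.4 CPM in vehicle and 69.3 and 77.7 CPM in NE. The groups did not overlap, but the difference did not pass (0.22 ± 0.08, adjusted p = 0.181), and it was 0.13 without the second NE library. Its paralogue Chmp2a overlapped between the groups (0.04 ± 0.07). The other 7 ESCRT-III genes had log2 fold changes between -0.07 (Chmp1b2, 0 called) and 0.14 (Chmp1b). Filaments are taken apart by the ATPases of Vps4 with the cofactor Vta1. Vps4b stood at 0.11 ± 0.07 (adjusted p = 0.460), Vps4a at 0.04 ± 0.09 and Vta1 at 0.05 ± 0.10. Pdcd6ip (ALIX), the adaptor that leads cargo to ESCRT-III without ESCRT-I, stood at 0.05 ± 0.07. Vps4a took between 36.5% and 39.0% of the counts of the Vps4 pair, and the groups overlapped.

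The retromer core is a trimer of VPS35, VPS29 and a VPS26 protein, and 3 of its 4 genes were higher in both NE libraries than in both vehicle libraries (24.6% of all genes were), none past the threshold. Vps35, the scaffold, was found at 384 and 354 CPM in vehicle and 422 and 460 CPM in NE (369 ± 20.8 to 441 ± 26.8 CPM, SD, n = 2 each). Its log2 fold change was 0.26 ± 0.07 (95% interval 0.11 to 0.41, edgeR adjusted p = 0.0741). Vps26a, the common VPS26 form, was found at 138 and 146 CPM in vehicle and 159 and 173 CPM in NE (0.23 ± 0.07, interval 0.07 to 0.38, adjusted p = 0.118). Vps29, the small subunit that binds regulators, was found at 75.0 and 68.7 CPM in vehicle and 80.9 and 86.2 CPM in NE (0.22 ± 0.08, interval 0.05 to 0.38, adjusted p = 0.160). In each of these 3 genes the second NE library was the highest of the 4.

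Vps26b, the other VPS26 form, known in mice as enriched in the brain, was found at 57.0 and 63.2 CPM in vehicle and 64.7 and 59.7 CPM in NE, and the groups overlapped (0.05 ± 0.09, interval -0.13 to 0.23, adjusted p = 0.826). Its share of the VPS26 counts was 29.3% (27.6 to 31.0%) and 30.2% (28.6 to 31.8%) in vehicle, 28.9% (27.4 to 30.4%) in the first NE library and 25.6% (24.3 to 26.9%) in the second. The share of the first NE library thus lay within the counting error of vehicle. Exons of Vps35 overlap those of Orc6, and exons of Vps29 those of Fam216a, both on the opposite strand, whereas those of Vps26a and Vps26b overlap none.

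Vps35 was called with no filter on low counts (adjusted p = 0.0469) and without the first vehicle library (0.32 ± 0.08, adjusted p = 0.00288). Vps26a was called without the second vehicle library (0.27 ± 0.09, adjusted p = 0.0337). Without the second NE library the log2 fold changes were 0.20 for Vps35, 0.16 for Vps26a and 0.17 for Vps29, with adjusted p-values of 0.726, 0.759 and 0.769. In every one of the 12 alternatives all 3 stayed positive.

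**Figure D3:**
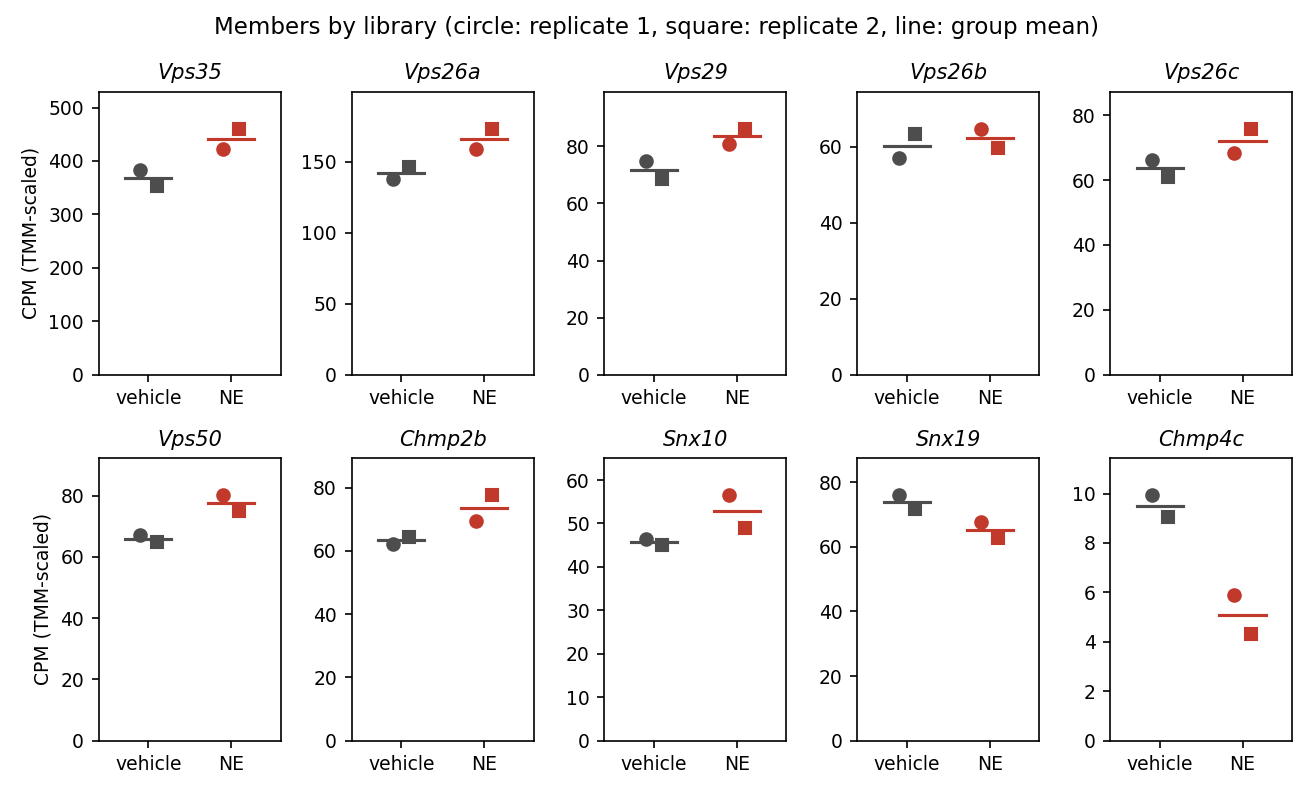
CPM of 10 members in each library (circles for replicate 1, squares for replicate 2) with the group mean as a line; each axis starts at 0. The NE values of Vps35, Vps26a, Vps29, Vps26c, Vps50, Chmp2b and Snx10 lie above both vehicle values, those of Snx19 and Chmp4c lie below, and those of Vps26b overlap.

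Retriever is built like retromer around VPS29, with VPS26C and VPS35L in place of the other subunits, and returns integrins and other receptors to the surface. Vps26c was found at 66.3 and 61.0 CPM in vehicle and 68.2 and 75.8 CPM in NE (0.18 ± 0.08, edgeR adjusted p = 0.277). Both NE values lay above both vehicle values, and the log2 fold change was 0.10 without the second NE library. Vps35l overlapped between the groups (0.07 ± 0.08). Snx17, the adaptor that hands cargo to retriever, was found at 72.7 and 74.7 CPM in vehicle and 77.1 and 87.0 CPM in NE (0.16 ± 0.08, edgeR adjusted p = 0.325). Exons of Snx17 overlap those of Eif2b4 and Zfp513 on the opposite strand.

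The sorting nexins that work with retromer, or as the ESCPE-1 coat, had a median of 0.02, and none of the 7 was called. Snx5 and Snx6, alternatives in the same coat position, stood at 0.11 ± 0.07 each, and Snx1 and Snx2, alternatives in the other, at 0.09 ± 0.08 and -0.03 ± 0.08. The cargo adaptors Snx3 and Snx27 stood at 0.02 ± 0.08 and -0.04 ± 0.08, with 95% intervals of -0.14 to 0.18 and -0.20 to 0.12. The rare Snx32 (27 and 25 counts in vehicle, 29 and 23 in NE) gave -0.18 ± 0.40. Exons of Snx32 overlap those of Cfl1 on the opposite strand, so its few counts are uncertain. Of these 7 genes 4 were positive, 0 had an unadjusted p under 0.05 (17.3% of all genes did) and the smallest edgeR adjusted p was 0.461. Whether their fold changes differ from those of the retromer core was not tested.

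Of the other 23 sorting nexins, 21 were tested, 13 positive and 8 negative (median 0.03). None passed in edgeR (0 called), in DESeq2 or with limma voom. In edgeR 3 of the 21 had an unadjusted p under 0.05, against 17.3% of all genes. Snx10, needed for osteoclast function and acid endosomes, was found at 46.4 and 45.0 CPM in vehicle and 56.6 and 49.1 CPM in NE (0.21 ± 0.09, adjusted p = 0.266), and its value was 0.10 without the first NE library. Snx18, which remodels membranes in endocytosis and autophagy, had 23.2 and 30.3 CPM in vehicle and 30.6 and 31.6 CPM in NE (0.22 ± 0.12, adjusted p = 0.363). Its value rests on the vehicle libraries: it was 0.43 without the second (adjusted p = 0.0251) and 0.04 without the first (adjusted p = 0.924). Snx4, a recycling nexin and the most abundant of them per kb, stood at 0.10 ± 0.07.

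On the negative side, Snx19, which tethers endosomes to the endoplasmic reticulum, was found at 76.1 and 71.7 CPM in vehicle and 67.5 and 62.7 CPM in NE (-0.18 ± 0.08, adjusted p = 0.245). Snx22 had the most negative value of all members, but on 20 and 11 counts in vehicle and 5 and 5 in NE (-1.79 ± 0.64, 95% interval -3.14 to -0.44, adjusted p = 0.161). Its exons overlap those of Ppib on the opposite strand, so its few counts are uncertain.

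Tethers hold vesicles at their target until they fuse. The HOPS and CORVET tethers of late and early endosomes, with Vps33b of the CHEVI complex, had 2 positive and 6 negative values of 8, and in 8 of 8 the groups overlapped, as they did in 5801 of all 11419 genes. Vps18 stood at 0.11 ± 0.11, Vps33b at -0.12 ± 0.16 and Vps41, the most abundant per kb, at -0.04 ± 0.08. Of the GARP and EARP tethers, which share VPS51, VPS52 and VPS53, the EARP subunit gene Vps50 was found at 67.1 and 64.9 CPM in vehicle and 80.3 and 75.1 CPM in NE (0.23 ± 0.08, interval 0.07 to 0.40, edgeR adjusted p = 0.130). The groups did not overlap. The gene Vps54, whose product takes that place in GARP, was found at 72.4 and 78.5 CPM in vehicle and 69.3 and 70.5 CPM in NE (-0.11 ± 0.08, adjusted p = 0.491). The shared subunits Vps51, Vps52 and Vps53 lay between -0.07 and 0.06.

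The Vps13 proteins carry lipids between membranes. Their values ran from -0.12 ± 0.08 for Vps13a to 0.01 ± 0.10 for Vps13c. An unadjusted p under 0.05 was found for 0 of 4, against 17.3% of all genes. In each of the 4 genes the second NE library was the lowest of the 4. Their merged exons, from 10838 nt (Vps13a) to 15849 nt (Vps13d), are the longest of the members. The longest of 10 equal groups of all genes by exon length had a median log2 fold change of -0.09. Whether length accounts for the low values in the second NE library was not tested. Vps45, a partner of SNARE proteins in fusion, stood at 0.21 ± 0.12 (adjusted p = 0.392). Vps9d1 stood at -0.10 ± 0.15. Vps72, whose symbol comes from yeast but whose product belongs to histone-exchange complexes, stood at 0.04 ± 0.09.

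Genes of the same routes that the symbol rule does not take were also counted. Of 80, 75 were tested and 1 was called, Igf2r, which fell, against 1.57% of all genes. An unadjusted p under 0.05 was found for 12 of 75, 7 positive and 5 negative, against 17.3% of all genes, so neither share exceeds the background. Igf2r encodes the large mannose 6-phosphate receptor that retromer and ESCPE-1 return to the Golgi. It was found at 60.3 and 66.3 CPM in vehicle and 50.4 and 47.0 CPM in NE (-0.38 ± 0.09, edgeR adjusted p = 0.0431). The call was lost with DESeq2 and without the second vehicle library (adjusted p = 0.0766), the first NE library (0.126) or the second (0.579). With the length trend removed it stood at -0.29 (adjusted p = 0.113).

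Of the 11 tested receptors and other cargoes of the list, 7 were negative, with a median of -0.11. Further genes of the 4 lists follow: those with an unadjusted p under 0.05, most of them chosen after their values were seen, and those with the most positive or negative value of a list. The growth factor receptor gene Egfr stood at -0.27 ± 0.08 (edgeR adjusted p = 0.0997) and the sortilin gene Sort1 at -0.36 ± 0.12 (adjusted p = 0.137). Both had NE values below those of vehicle, as did 24.6% of all genes. Without the second NE library Egfr stood at -0.15 and Sort1 at -0.21. Of the 21 genes of WASH, Commander and retromer regulators, 15 were positive, against 50% of all genes, and 0 were called, against 1.57%. The groups did not overlap in 7 of them with NE higher and in 2 with NE lower, and they overlapped in 12. Over all genes, 24.6% did not overlap in each direction. Those with NE higher include the Commander genes Dennd10 (0.33 ± 0.10, edgeR adjusted p = 0.0833), Commd2 (0.28 ± 0.10) and Commd3 (0.22 ± 0.08), while Commd10 stood at -0.17 ± 0.10. The copper transporter gene Atp7a stood at 0.12 ± 0.11, the highest of the cargoes.

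Of the 18 tested ESCRT genes outside the rule, 12 were positive. Sdcbp encodes syntenin, which works with ALIX in exosome formation. It was found at 207 and 216 CPM in vehicle and 249 and 263 CPM in NE (0.27 ± 0.07, edgeR adjusted p = 0.0530). Pdcd6, which encodes the calcium-binding partner of ALIX, stood at 0.20 ± 0.08, and Ptpn23, which encodes an ALIX relative, at -0.29 ± 0.08 (adjusted p = 0.0778). Among the 25 genes of endosome identity and fusion, 13 were positive and 12 negative. The SNARE genes Vti1b and Stx8 stood at 0.27 ± 0.10 and -0.17 ± 0.15, and the recycling gene Rab11a at 0.18 ± 0.08.

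**Figure D4:**
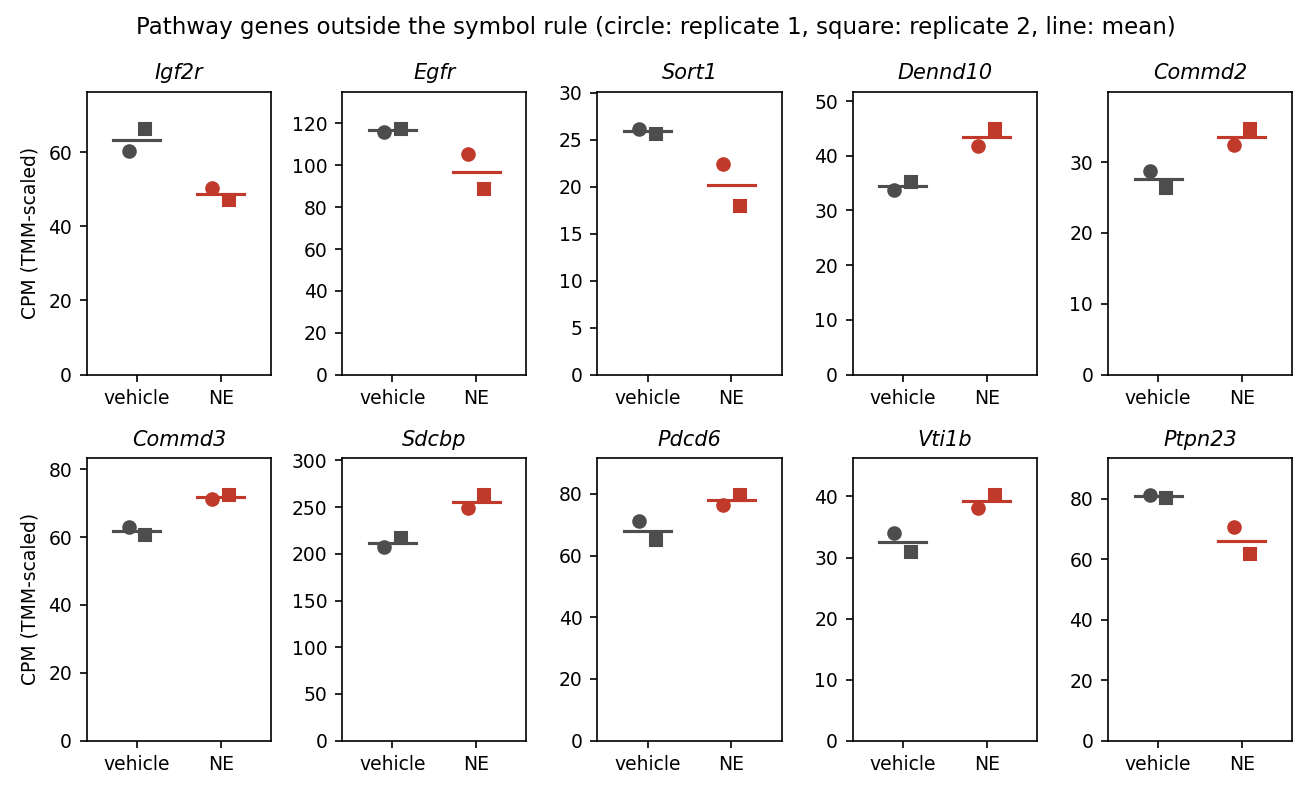
CPM of 10 pathway genes outside the symbol rule in each library (circles for replicate 1, squares for replicate 2) with the group mean as a line; each axis starts at 0. Igf2r, Egfr, Sort1 and Ptpn23 are lower in both NE libraries, and Dennd10, Commd2, Commd3, Sdcbp, Pdcd6 and Vti1b are higher, but only Igf2r passed the threshold.

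Fold changes also moved with exon length over all genes, from a median of 0.11 in the shortest of 10 equal groups by length to -0.09 in the longest. Among the 80 tested members the rank correlation (Spearman's rho) of exon length with fold change was -0.28, and over all genes it was also -0.28, given as a description since genes share libraries. The merged exons of Vps35 (3474 nt), Vps26a (2860 nt) and Vps29 (2949 nt) lie near the median of all genes (3380 nt), and those of Chmp4c (6188 nt) and Igf2r (8887 nt) are longer. With the length trend removed from each library, the log2 fold changes were 0.26 for Vps35, 0.22 for Vps26a, 0.21 for Vps29, 0.28 for Vps50 and -0.85 for Chmp4c. Other genes moved by more: Vps28 went from 0.12 to 0.02, Chmp4b from 0.11 to 0.06, Stam from -0.10 to -0.03 and Vps13a from -0.12 to -0.0088. Outside the symbol rule, Commd3 went from 0.22 to 0.11, Pdcd6 from 0.20 to 0.12 and Egfr from -0.27 to -0.17. The median over members was then 0.05.

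**Figure D5:**
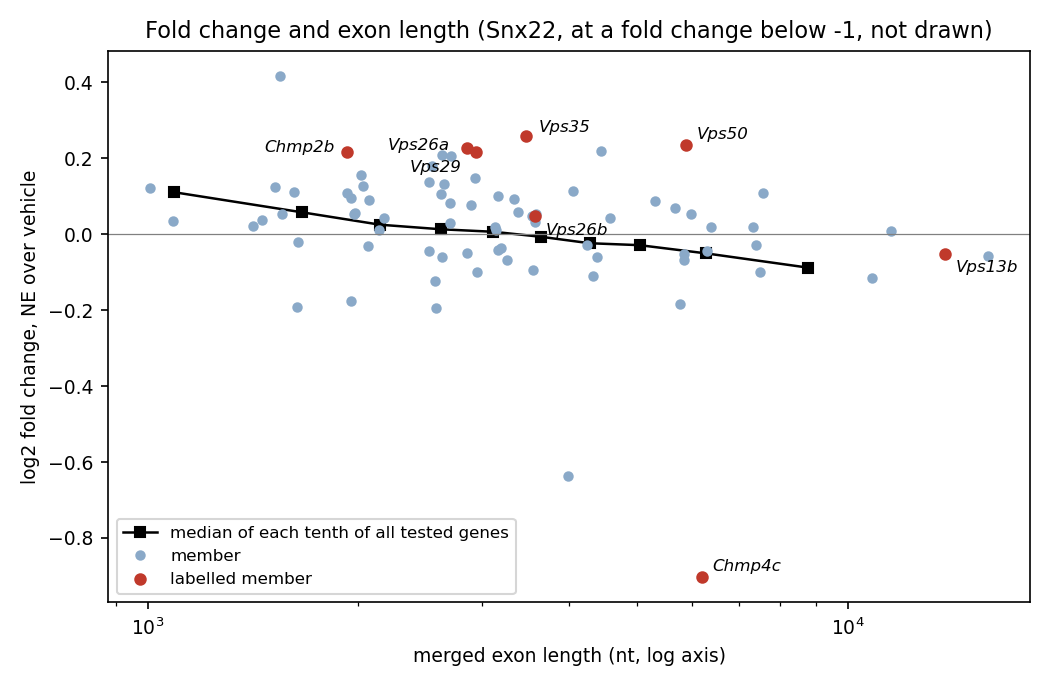
Log2 fold change of NE over vehicle against merged exon length (log axis) for the tested members (points, some labelled in red; Snx22 at -1.79 is not drawn) and the median of each of 10 equal groups of all tested genes by length (black squares). The medians go from 0.11 to -0.09, Vps35, Vps26a, Vps29 and Vps50 lie above them, and Chmp4c lies far below.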

How the data were processed

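The authors deposited raw read counts per gene for 4 libraries. The build was GRCm39 (mm39), per the submitters' processing notes. Which aligner, counter, annotation and strand setting were used is not given in the sources used here. Libraries were grouped by title. Counts were tested with edgeR 4.0.16 (R 4.3.3): filterByExpr (minimum count 10, minimum total 15), TMM scaling, a quasi-likelihood test of NE against vehicle with no other term, and Benjamini-Hochberg adjustment over 11419 genes. CPM use TMM-scaled totals. SE is the absolute log2 fold change over the root of F, and 95% intervals use the moderated t distribution. Exon lengths and overlaps come from GENCODE M21 (GRCm38), matched by gene ID, and promoters from RefSeq (GRCm38.p6). Neither build is that of the counts, so both served only for lengths, neighbours and sequences. The procedure was also run on simulated counts with the same spread between libraries for every gene and no length trend. That run therefore does not give its error rate in these data. Alternatives were other scalings and filters, DESeq2 1.42.0, limma voom (limma 3.58.1), a replicate block, removal of each library's length trend, and each library left out.

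The members and lists were chosen with earlier results of these data known. Named are members called or with an unadjusted p under 0.05, the most abundant and the extreme fold changes of each class, untested members, and a fixed list of core subunits. Other members named complete a complex or pair, or carry the palindrome, and were chosen after their values were seen. The values of 1 pathway gene are not reported here, though it is in the counts.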

Additional observations from a re-analysis of the deposited data

How the results depend on the processing

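Depth limits Snx20, Snx22, Snx29, Snx31 and Vps37d, which had fewer than 100 counts each, and 2 libraries per group limit every p-value. Exons of 31 of the 82 members overlap those of another annotated gene, on the same or the opposite strand. They include Vps28, Vps25 and Snx5, and not every overlap is named where the values are given. Over all genes, 179 were called, against 309 with no filter, 59 with DESeq2, 29 with the length trend removed and 4 to 740 with a library left out. With total counts as scaling 12 were higher and 120 lower, against 39 and 140. Among members, where 1 was called (Chmp4c), the count was 2 with no filter (Chmp4c and Vps35), 0 with total counts as scaling, 0 with DESeq2, 0 with the length trend removed, 0 when members with overlapping exons were left out of the count, and 0 to 3 with a library left out. Among the other endosomal genes, where 1 was called (Igf2r), it was 3 with no filter, 2 with the stricter filter, 3 with limma voom, 0 with DESeq2, 0 with the length trend removed and 0 to 4 with a library left out. Causes not shown by the alternative's own construction were not tested.

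The replicate numbers are shared numbers only, and the correlation of replicate differences between the groups was -0.0556. With the replicate number as a block, 320 genes were called (84 higher, 236 lower), 1 member (Chmp4c) and 3 other endosomal genes, Igf2r and Sdcbp among them.

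Of 502 values of 42 named members under the alternatives, 466 kept their direction and their side of the threshold, 5 lost the call (Chmp4c), 4 gained one and 27 changed sign, none of these called. These 42 are the tested members named by the rules given above, and members named for other reasons, such as Vps26b and Snx17, were not counted. With the length trend removed the log2 fold changes that turned were -0.062 for Chmp2a, 0.010 for Snx27, -0.051 for Snx3 and -0.032 for Vps72. Vps13c gave -0.0083 with total counts as scaling and -0.0024 with limma voom. With a library left out the lowest and highest values were -0.0026 and 0.076 for Chmp2a, -0.13 and 0.067 for Snx2, -0.11 and 0.028 for Snx27, -0.074 and 0.11 for Snx3, -0.47 and 0.090 for Snx32, -0.14 and 0.16 for Vps13c, -0.093 and 0.058 for Vps25, -0.27 and 0.019 for Vps33b, -0.027 and 0.090 for Vps36, -0.15 and 0.074 for Vps37b, -0.074 and 1.17 for Vps37d, -0.097 and 0.029 for Vps41, -0.061 and 0.14 for Vps4a, -0.0096 and 0.083 for Vps72, and -0.28 and 0.072 for Vps9d1.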
